A study of Mus musculus with 4 samples.

Results

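Gene expression in the gastric corpus of metformin-treated mice lacking AMPK in parietal cells was compared with that of metformin-treated wild-type mice. The comparison rests on 2 of the 4 arrays of the study, chosen by their titles, with 1 array on each side. Wild-type mice (WT) were C57BL/6. Knockout mice (KO) were Atp4b-cre; Prkaa1fl/fl; Prkaa2fl/fl, which deletes both catalytic subunits of AMPK where the promoter of the proton pump gene Atp4b drives Cre, that is, in parietal cells. KO mice had a mixed background with B6 and FVB contributions, so genotype and strain background cannot be told apart, and littermates served as controls only where that was possible. All were adults of 8 to 10 weeks, and both compared groups received metformin at 300 mg/kg by daily intraperitoneal injection for 14 days. The other 2 arrays came from a WT and a KO group given saline vehicle, and their values are given beside those of the metformin arrays. The labels do not say how many animals contributed RNA to an array.

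AMPK is a kinase that senses low cellular energy, and metformin is a diabetes drug that inhibits respiratory complex I and activates AMPK. The corpus is the acid-secreting region of the stomach. Its glands are built from parietal cells, which secrete acid, chief cells, which secrete pepsinogen, and mucous cells of the neck and pit, and in the mouse it borders the squamous forestomach.

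Values are on the log2 scale, and a difference is the KO array minus the WT array of the same treatment. With 1 array per group no difference has a replicate check or a test, so sizes are given. A gene was called higher or lower when the difference reached 1 (2-fold) and its mean over the 4 arrays was 5.03 or more, which is the median over all genes. No fold is given where the lower of the compared values was under 5.03. Of 11090 genes past that filter, 59 were called higher in KO under metformin (0.532%) and 43 lower (0.388%). Below, shares and medians of all genes are over these 11090, unless all measured genes are named. The middle 95% of all differences lay between -0.60 and 0.62, and their median was 0.02. Of the 59 higher genes, 27 were members of a gene list, among them 6 squamous epithelium genes, 6 clock repressors, 3 mast cell and 3 plasma cell genes. Another 9 were immunoglobulin segments, and the other 23 belonged to neither. The lists were chosen with earlier results of these data known. A count of called members beside the share over all genes is therefore a description, not independent support. The lower genes were led by the predicted gene Gm12888, small nucleolar RNAs and the clock activator Arntl.

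**Figure D1:**
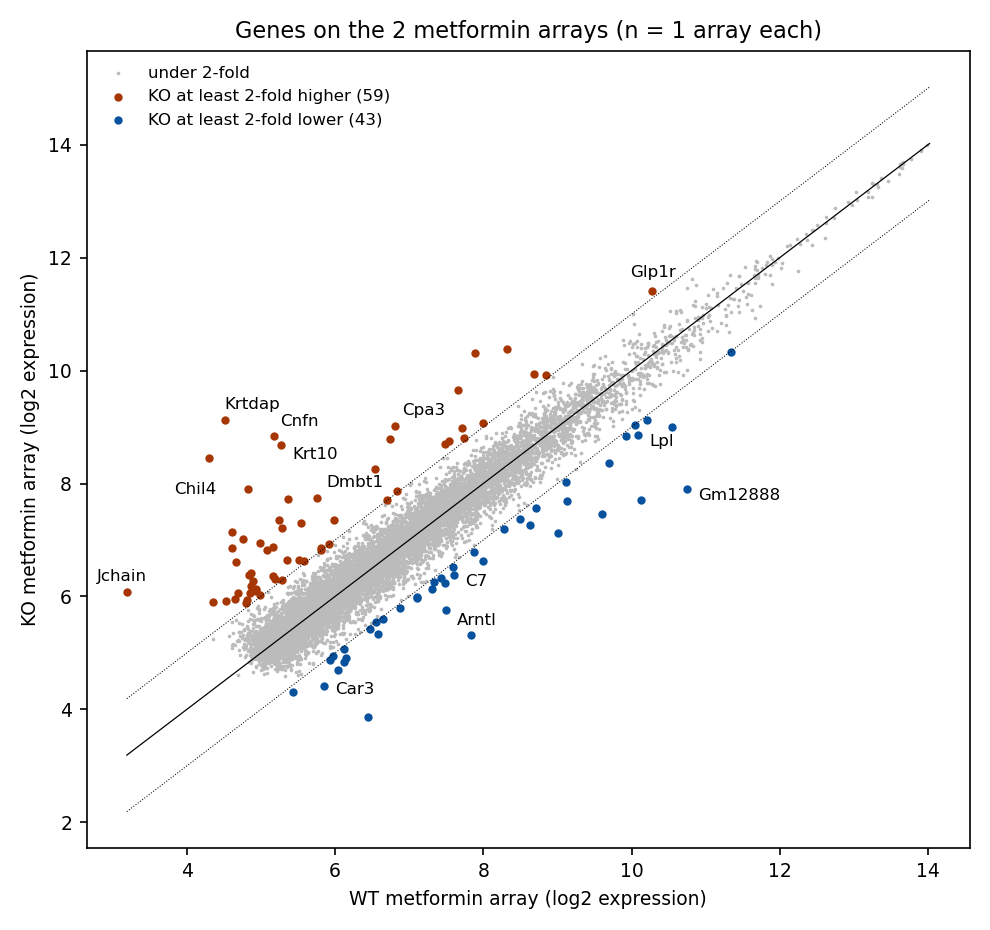
Log2 expression of the 11090 genes past the filter on the WT metformin array (x axis) and the KO metformin array (y axis), 1 point per gene. The solid line marks equal values and the dotted lines a 2-fold difference, and the 59 higher and 43 lower genes lie beyond them, with Krtdap farthest above and Gm12888 farthest below.

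The tissue and the targeted genes were examined on all arrays. The proton pump subunits Atp4a (12.80 to 13.22) and Atp4b (13.01 to 13.44), the pepsinogen gene Pgc (13.99 to 14.02) and the pit cell gene Gkn1 (13.37 to 13.61) were high on all 4 arrays. The X-inactivation RNA Xist lay between 2.77 and 3.47 and the Y-linked gene Eif2s3y between 7.38 and 7.82. Prkaa1, the α1 catalytic subunit of AMPK, was at 9.46 on WT vehicle, 8.90 on WT metformin, 8.18 on KO vehicle and 8.66 on KO metformin. Prkaa2, the α2 subunit, was at 8.90, 8.02, 7.19 and 7.52. Both genes were lower on the KO arrays by less than 2-fold under metformin (-0.24 and -0.50). RNA of the whole corpus includes cells outside the parietal lineage, in which Cre is not driven, and where the probes lie in relation to the floxed exons was not stated. Of 11 AMPK subunit and upstream kinase genes 10 passed the filter and none was called. Their median was 0.04, with the regulatory subunit Prkab1 (0.33) highest and the upstream kinase Stk11 at 0.19.

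Among the genes named by the rule, which leaves out immunoglobulin segments, the 3 highest differences belonged to genes of stratified squamous epithelium. Such epithelium is built from keratins and, in its upper layers, from cross-linked proteins of the cornified envelope. Krtdap, a secreted product of differentiating keratinocytes, was at 3.92 on the WT vehicle array, 4.51 on WT metformin, 4.43 on KO vehicle and 9.13 on KO metformin. Cnfn, a component of the cornified envelope, was at 4.71, 5.18, 5.71 and 8.83 on the same arrays. Krt10, a keratin of the suprabasal layers, was at 4.66, 5.28, 5.44 and 8.69. For all 3 the KO metformin array stood far above the others, which lay close together. The differences under metformin were 4.61 for Krtdap, 3.66 (12.6-fold) for Cnfn and 3.41 (10.6-fold) for Krt10, against 0.51, 1.0 and 0.78 under vehicle.

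Of 44 listed squamous genes 41 were measured, and 14 passed the filter. Among these 14, 6 were called higher and none lower (0.532% and 0.388% of all genes), and their median difference was 0.88 against 0.02 over all genes. Several of the 14 passed the filter only because of the KO metformin array, so the count over all 41 is given too. Without a filter 14 of 41 were at least 2-fold higher, beside 0.631% of the 22180 measured genes, and none of 41 was at least 2-fold lower, beside 0.343%. The KO metformin array was the highest of the 4 for 34 of the 41, against 19.4% of all measured genes. Members under the filter included Krt4, a keratin of internal squamous epithelia (3.83, 3.71, 3.70 and 7.26 in the array order above), and Krt1, the partner of Krt10 (3.92, 4.06, 4.08 and 7.21). The envelope gene Sprr3 was at 1.95, 2.42, 2.74 and 5.42, and the suprabasal desmosomal cadherin gene Dsc1 at 2.87, 2.99, 2.61 and 5.25. In each, the other 3 arrays differed from each other by less than 1.

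Other squamous genes called higher were Dmkn, a secreted protein of the upper epidermis (2.25), the internal squamous keratin Krt13 (1.96) and Ly6g6c (1.26). The small proline-rich gene Sprr1a had 0.79 and Sbsn 0.94. The basal layer markers Krt14 and Trp63, the basal transcription factor, were low on every array. Krt14 lay between 3.70 and 4.46 and Trp63 between 3.03 and 3.60, with metformin differences of 0.34 and 0.57. Other listed members with basal expression differed more. Krt15 had 0.92 under metformin and 1.38 under vehicle, and Dsg3 1.11 and -0.07, both at values under the filter. The stress keratin Krt16 (0.01) and the precursor of the envelope, Ivl (0.11), differed little. Of called genes outside the list, the late cornified envelope gene Lce3c (1.56), Lypd5 (1.38) and Nccrp1 (1.37), were also higher. The forestomach carries these genes, and how much squamous tissue each sample held was not tested.

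**Figure D2:**
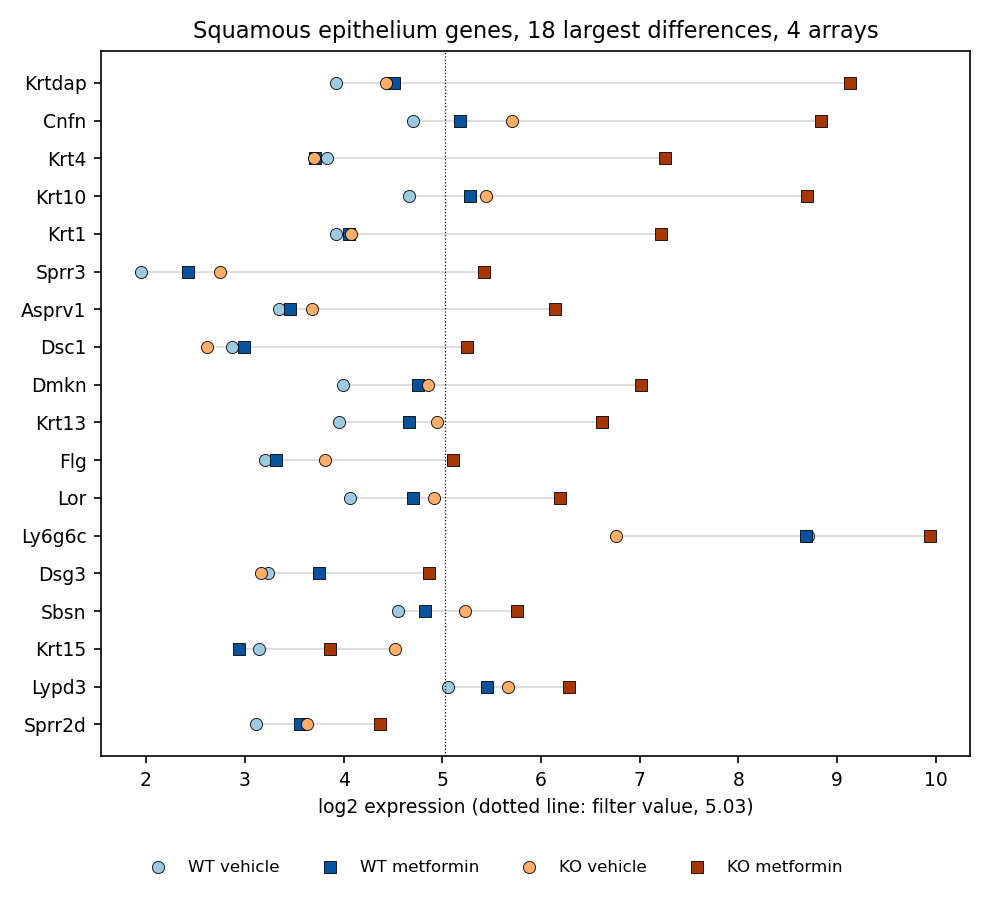
Log2 expression (x axis) of the 18 squamous epithelium genes with the largest differences under metformin (rows), with 1 symbol per array (circles vehicle, squares metformin, blue WT, orange and brown KO). The KO metformin array lies to the right of the other 3 for every row except Krt15, where the KO vehicle array is the highest, and in Ly6g6c the KO vehicle array is the lowest.

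Several mast cell protease genes were higher in KO. Mast cells store chymases (Mcpt1, Mcpt2), tryptases (Tpsab1, Tpsb2) and carboxypeptidase A3 (Cpa3) in their granules. Cpa3 was at 7.69 on the WT vehicle array, 6.81 on WT metformin, 8.32 on KO vehicle and 9.02 on KO metformin. Tpsb2 was at 5.54, 5.25, 7.05 and 7.35, Mcpt2 at 3.86, 4.98, 7.25 and 6.95, and Mcpt1 at 2.88, 3.38, 6.37 and 6.51. For all 4 genes both KO arrays lay above both WT arrays. Over the 17 measured mast cell genes this held for 9. For 3 of the 17 (Kit, Hdc and Mcpt4) both KO arrays lay below both WT arrays. Over genes past the filter the shares were 12.0% and 24.1%. The 17 include members under the filter, so these shares are not the same measure, and none was computed over all measured genes. Under metformin the differences were 2.21 (4.62-fold) for Cpa3, 2.10 (4.29-fold) for Tpsb2, 1.96 for Mcpt2 and 3.13 for Mcpt1, which lies under the filter.

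Members of the mast cell list differed among themselves. Of 18 listed genes 17 were measured and 6 passed the filter, with a median of 1.16. Of those 6, 3 were called higher (Cpa3, Tpsb2 and Mcpt2) and none lower, beside 0.532% and 0.388% of all genes. Both WT values of Mcpt2 lie under the filter value, so it passed through the KO arrays. Without a filter 5 of 17 were at least 2-fold higher, beside 0.631% of all measured genes, and the median over the 17 was 0.33. At a filter on the 75th percentile, which fewer members pass, the median was 0.00. The receptor gene Kit, which interstitial cells of Cajal also express, had -0.31 under metformin and -1.61 under vehicle. The histamine-synthesis gene Hdc, shared with endocrine cells, had 0.00. The transcription factor Gata2 had 0.35, the high-affinity IgE receptor subunits Fcer1a and Ms4a2 0.24 and 0.50, and the connective tissue chymase Mcpt4 -0.37. Mcpt1 and Mcpt2, and Tpsab1 and Tpsb2, are closely related pairs, so their probe sets may share signal.

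Genes of type 2 immunity, the response to parasites and allergens, were called higher at 3 of 9 members past the filter (0.532% of all genes) and at the same number of the 24 measured without a filter (0.631%). Chil4, a chitinase-like secreted protein, was at 4.0 on WT vehicle, 4.83 on WT metformin, 8.07 on KO vehicle and 7.91 on KO metformin. Both KO arrays lay above both WT arrays, whose values are under the filter value, and the differences were 3.08 under metformin and 4.07 under vehicle. Over the 24 measured members both KO arrays lay above both WT arrays for 11 and below for 3. The shares over genes past the filter were 12.0% and 24.1%. The 24 include members under the filter, so these shares are not the same measure. Retnla, a marker of alternatively activated macrophages, had 1.12 and Clca1, a secreted protein of mucous cells, 1.03. The related Chil3 stayed between 2.5 and 3.80 on all arrays. The cytokine genes Il4 (-0.02) and Il13 (-0.09) lay under the filter, and the alarmin Il33 had 0.13. The median was 0.13 over the 9 and 0.06 over the 24.

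Immunoglobulin transcripts were also higher. Jchain, which joins IgA and IgM into polymers, was at 3.94, 3.19, 7.02 and 6.08 in the same array order, and the IgM heavy chain gene Ighm at 7.63, 8.33, 11.38 and 10.39. Pigr, the epithelial receptor that carries polymeric immunoglobulin into the lumen, was at 4.88, 4.93, 6.93 and 6.10. Both KO arrays lay above both WT arrays for all 3, with metformin differences of 2.89, 2.06 and 1.16. Over the 13 measured plasma cell genes both KO arrays lay above for 4 and below for 2. The shares over genes past the filter were 12.0% and 24.1%. The 13 include members under the filter, so these shares are not the same measure. Jchain, Ighm and Pigr were the only 3 of 8 plasma cell genes past the filter that were called, beside 0.532% of all genes. Jchain and Pigr passed it through the KO arrays, both WT values being lower than 5.03. The others were Xbp1 (0.23), Txndc5 (-0.16), Sdc1 (-0.15), Prdm1 (-0.20) and Derl3 (-0.23), and the list's median was 0.04, or -0.14 over the 13 measured members. Ighm has 7 probe sets, whose differences ran from 0.02 to 3.30. Of 19 measured immunoglobulin variable and joining segments 13 were at least 2-fold higher without a filter (0.631% of all measured genes) and none at least 2-fold lower, with a median of 1.38. The 9 past the filter were all among the higher genes, and several of them passed it through the KO arrays. Their sequences resemble each other, so they are not separate measurements. Of 9 measured B cell genes none was past 2-fold (median 0.11), but only 1 passed the filter.

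Few genes of other immune cells were past 2-fold. Of 11 macrophage and dendritic cell genes past the filter none was called, and their median was -0.11, from Lyz2 (-0.36) to Fcgr1 (0.31). Of 14 measured T and NK cell genes none was past 2-fold, with a median of -0.19, and 2 passed the filter. None of 10 neutrophil genes passed the filter, and Retnlg, a secreted resistin-like protein, had 1.23 at values between 2.65 and 4.53. For genes this low a difference may not be detectable.

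**Figure D3:**
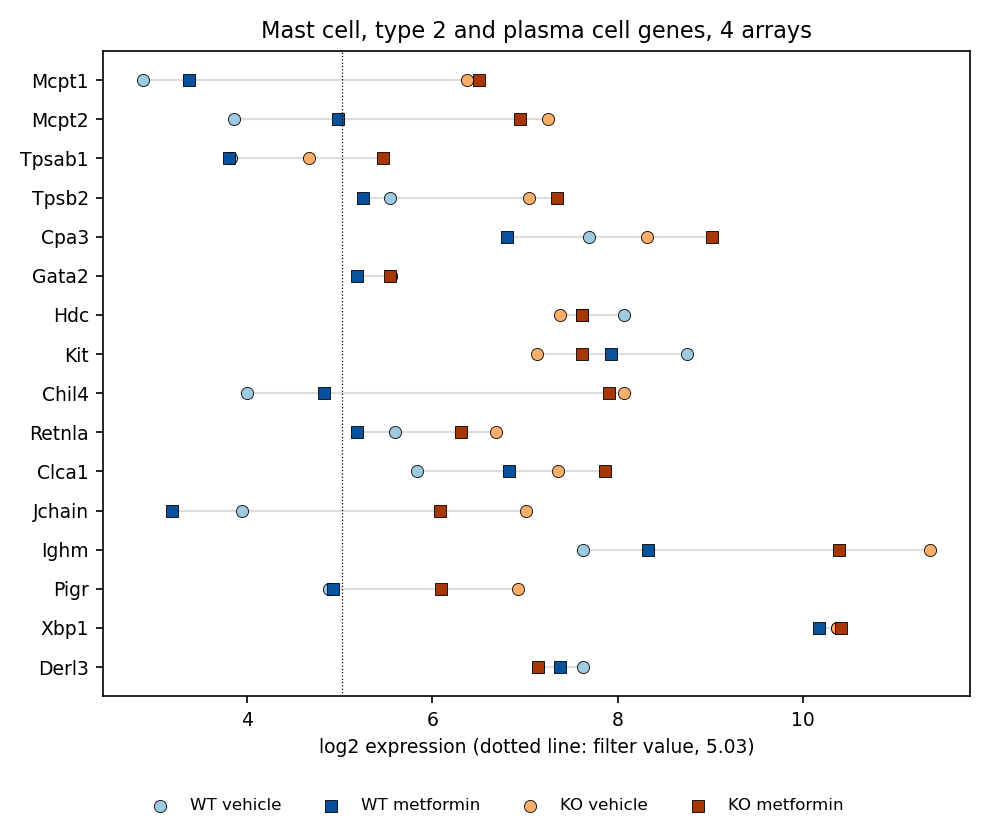
Log2 expression (x axis) of 16 mast cell, type 2 immunity and plasma cell genes (rows) with 1 symbol per array, coded by colour for genotype and by shape for treatment. For Mcpt1, Mcpt2, Tpsab1, Tpsb2, Cpa3, Chil4, Retnla, Clca1, Jchain, Ighm and Pigr both KO symbols lie to the right of both WT symbols. For Kit and Derl3 both lie to the left. In Xbp1 the KO vehicle (10.3685) and WT vehicle (10.3671) symbols nearly coincide. In Hdc the KO metformin (7.6161) and WT metformin (7.6165) symbols do.

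Among circadian clock genes, 6 of 9 repressors were called higher in KO under metformin and 1 of 5 activators lower. In the clock, the activators Arntl (BMAL1), Clock and Npas2 bind E-boxes and switch on their own repressors, the Per and Cry genes, and Dbp, Tef and Hlf carry the rhythm onward through D-boxes. Nr1d1 and Nr1d2 repress, and ROR receptors activate, Arntl through ROR elements. Promoter windows from RefSeq (GRCm38.p6), from 250 bases before to 50 after each transcript start, were searched on both strands for the E-box CACGTG, the D-box TTATGTAA and the ROR element TAGGTCA. Windows were found for 24 of the 26 measured clock genes. An E-box was present in at least 1 window for 4 of 8 repressors, 2 of 10 output factors and 0 of 6 activators. Of all 32851 single windows 7.15% held one. The counts are per gene and some genes have several windows, so they are not the same measure as this share. The D-box was in 0.938% of all windows and the ROR element in 2.61%. Of the called clock genes whose windows hold a match, 5 are shown, with the matches in capitals.
Ciart, chr3:95882179-95882478 (- strand): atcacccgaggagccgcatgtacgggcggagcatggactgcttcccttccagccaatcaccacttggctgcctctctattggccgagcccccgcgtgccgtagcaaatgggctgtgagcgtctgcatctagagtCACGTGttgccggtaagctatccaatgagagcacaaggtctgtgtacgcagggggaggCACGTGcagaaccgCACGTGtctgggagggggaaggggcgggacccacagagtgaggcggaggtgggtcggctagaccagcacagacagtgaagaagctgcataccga
Per1, chr11:69098699-69098998 (+ strand): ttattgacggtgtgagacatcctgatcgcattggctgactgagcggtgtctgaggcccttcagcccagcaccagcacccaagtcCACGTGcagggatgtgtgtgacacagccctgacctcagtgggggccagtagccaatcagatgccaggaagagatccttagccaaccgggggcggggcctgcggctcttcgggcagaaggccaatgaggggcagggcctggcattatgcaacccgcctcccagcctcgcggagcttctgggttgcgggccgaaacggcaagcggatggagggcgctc
Bhlhe41, chr6:145865371-145865670 (- strand): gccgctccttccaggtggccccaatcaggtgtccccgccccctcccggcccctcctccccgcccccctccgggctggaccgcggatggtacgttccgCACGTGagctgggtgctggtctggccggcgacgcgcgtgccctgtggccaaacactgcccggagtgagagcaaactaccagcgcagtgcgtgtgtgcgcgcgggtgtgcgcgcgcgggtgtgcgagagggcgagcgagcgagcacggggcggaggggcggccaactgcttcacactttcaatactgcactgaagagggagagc
Per3, chr4:151044616-151044915 (- strand): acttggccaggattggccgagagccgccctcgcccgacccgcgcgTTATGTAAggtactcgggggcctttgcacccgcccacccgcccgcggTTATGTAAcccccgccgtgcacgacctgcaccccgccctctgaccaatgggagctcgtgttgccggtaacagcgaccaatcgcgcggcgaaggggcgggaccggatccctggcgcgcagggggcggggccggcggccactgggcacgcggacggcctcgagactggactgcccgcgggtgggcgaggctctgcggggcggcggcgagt
Arntl, chr7:113207261-113207560 (+ strand): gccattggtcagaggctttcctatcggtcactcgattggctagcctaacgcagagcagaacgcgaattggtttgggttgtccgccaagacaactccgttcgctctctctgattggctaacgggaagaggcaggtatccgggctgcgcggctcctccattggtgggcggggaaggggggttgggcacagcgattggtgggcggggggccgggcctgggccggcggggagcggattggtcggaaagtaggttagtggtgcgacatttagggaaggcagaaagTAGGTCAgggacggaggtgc
The Ciart window holds 3 E-boxes, which start 116, 58 and 44 bases before the transcript start. Those of Per1 and Bhlhe41 hold 1 each, 166 and 153 bases before it. Per3 has 2 D-boxes (205 and 158 bases before), and Arntl 1 ROR element, 30 bases past the start of the second of its 2 windows. Cry1 and Tef, called but not shown, and Tspan4 also had an E-box, and Nfil3 had a ROR element. The Dbp window held none of the 3 motifs. The motifs overlap nowhere in these windows, and a match describes letters, not binding.

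The activator Arntl was the one called lower, of 5 past the filter (0.388% of all genes). It was at 8.04 on WT vehicle, 7.49 on WT metformin, 5.69 on KO vehicle and 5.75 on KO metformin, and Npas2, the alternative partner of BMAL1, at 7.57, 7.26, 5.97 and 6.51. Both KO arrays lay below both WT arrays for each of them. This held for 4 of 6 measured activators, beside 24.1% of genes past the filter. The 6 include Rorb, which lies under the filter, so the share is not quite the same measure. Arntl differed by -1.74 under metformin (3.33-fold lower) and Npas2 by -0.75, and for Clock the difference was -0.27. Arntl2, a paralog of Arntl, had -0.02 and the receptor gene Rora 0.11, and the median of the 5 was -0.27.

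All 9 measured clock repressors had a positive difference under metformin, and the 6 called compare with 0.532% of all genes. For 6 of the 9 both KO arrays lay above both WT arrays, beside 12.0% of genes past the filter. Per3 was at 5.29 on WT vehicle, 5.54 on WT metformin, 6.90 on KO vehicle and 7.29 on KO metformin, and Ciart, which represses BMAL1 complexes, at 4.87, 4.86, 5.96 and 6.06. The genotypes did not overlap for either gene. Both WT values of Ciart lie under the filter value, so it passed through the KO arrays. Per1 was at 8.67, 7.48, 7.93 and 8.71, and Bhlhe40, an E-box repressor, at 8.68, 7.99, 8.19 and 9.06. For Per1 and Bhlhe40 the WT metformin array was the lowest, and the WT vehicle array lay above the KO vehicle array. The differences under metformin were 1.75 for Per3 (3.36-fold), 1.31 for Bhlhe41, 1.23 for Per1 (2.34-fold), 1.20 for Ciart, 1.07 for Bhlhe40 and 1.01 for Cry1. Nr1d2 (0.99), Cry2 (0.75) and Nr1d1 (0.71) were below 2-fold.

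Among 11 output genes past the filter 3 were called higher, beside 0.532% of all genes, and the median was 0.69. Dbp was at 7.95 on WT vehicle, 6.74 on WT metformin, 7.67 on KO vehicle and 8.80 on KO metformin. Its difference of 2.06 (4.16-fold) under metformin stood beside -0.29 under vehicle. Tef had 1.32 and Tsc22d3, which glucocorticoids also induce, 1.05. A second probe set of Tef had 0.14. Nfil3, which opposes Dbp at D-boxes, had -0.24, Usp2 0.89, Hlf 0.69 and Wee1 0.62. The genotype differences of the vehicle arrays were of the same sign for, among others, Arntl (-2.35), Npas2 (-1.60), Per3 (1.61), Ciart (1.09), Bhlhe41 (0.94) and Tef (0.88). They were of the opposite sign for Nr1d1 (-1.58), Per1 (-0.75), Bhlhe40 (-0.50), Usp2 (-0.32), Dbp (-0.29), Fmo2 (-0.22) and Wee1 (-0.22). Nfil3 (0.52), Nampt (0.40) and Rora (-0.17) also had the opposite sign. The labels do not state the hour at which tissue was taken.

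**Figure D4:**
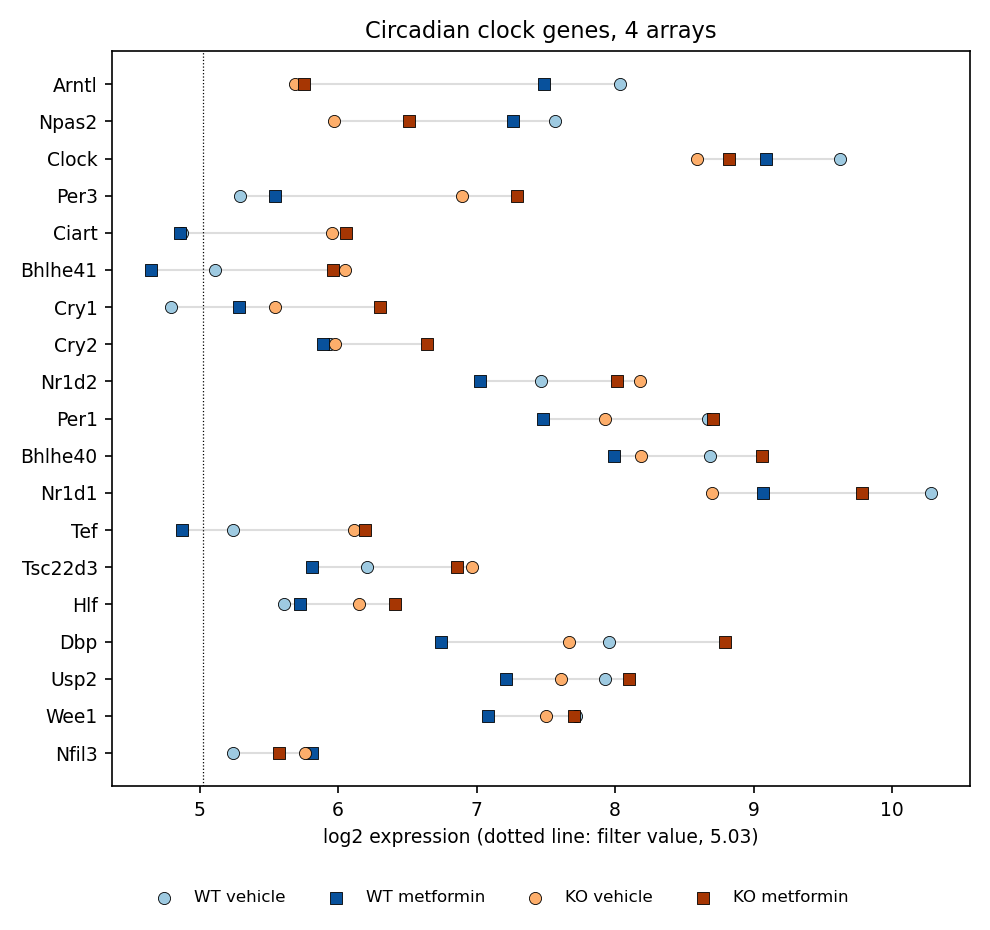
Log2 expression (x axis) of 19 circadian clock genes (rows, from activators through repressors to output genes) with 1 symbol per array. Arntl and Npas2 have both KO symbols left of both WT symbols, Per3, Ciart and Tef have them to the right, and Dbp and Per1 have the WT metformin symbol lowest.

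Within the glands, 3 genes of mucous neck cells were called higher. Gkn3, a gastrokine of neck cells, was at 7.82 on WT vehicle, 7.71 on WT metformin, 8.03 on KO vehicle and 8.99 on KO metformin, and the water channel Aqp5 at 5.89, 5.58, 5.90 and 6.63. The gland mucin Muc6 was at 11.45, 10.82, 10.41 and 11.62. The KO metformin array was the highest for each. Of 10 neck cell genes past the filter (12 measured) 3 were called higher, Gkn3 (1.27, 2.42-fold), Aqp5 (1.05) and Pigr (1.16), which is also in the plasma cell list, and none lower, beside 0.532% and 0.388% of all genes. Both WT values of Pigr lie under the filter value. The median was 0.77 over the 10 and 0.56 over the 12. Bpifb1 had 0.92, Muc6 0.80, the glycosyltransferase A4gnt 0.74, the neck cell peptide Tff2 -0.28 and the disulfide isomerase Agr2 -0.11. Under vehicle Muc6 (-1.05) and A4gnt (-1.48) had the opposite sign.

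Spasmolytic polypeptide-expressing metaplasia is a repair state of corpus glands, and its 11 genes past the filter had a median of 0.15, which turned to -0.17 at a filter on the 75th percentile. Dmbt1, a secreted scavenger receptor protein, was at 5.59, 5.75, 6.40 and 7.74 in the usual array order, a difference of 1.99 (3.97-fold) under metformin. It and Aqp5 were the 2 members called, beside 0.532% of all genes. The progenitor factor Sox9 had 0.78, the hyaluronan receptor Cd44 0.76, Clu 0.15, Olfm4 0.00 and Anxa10 -0.37. Under vehicle Sox9 (-0.90), Cd44 (-0.42) and Clu (-0.12) had the opposite sign, while Dmbt1 (0.81) and Anxa10 (-0.46) had the same sign. Slc7a11, the cystine transporter that lies under the filter, was at 3.98, 3.44, 4.10 and 4.63.

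No parietal, chief or pit cell gene reached 2-fold under metformin. None of 27 parietal, 9 chief and 12 pit cell genes past the filter was called, and the medians were 0.07, 0.13 and 0.08. Atp4a (-0.03), Atp4b (0.07), the potassium channel subunit Kcne2 (-0.07) and Cblif, which encodes intrinsic factor (0.09), lay close to 0. The parietal cell range ran from the potassium channel Kcnj10 (-0.36) to the somatostatin receptor Sstr2 (0.67) and the histamine receptor Hrh2 (0.56), with the nuclear receptor Esrrg at 0.43 and its coactivator Ppargc1a at -0.28. Under vehicle 6 of the 27 parietal cell genes were at least 2-fold lower in KO, beside 8.12% of all genes, and the median was -0.42 against -0.22 over all genes. In chief cells Pgc had 0.00, the maturation factor Bhlha15 0.21 and Chia1 -0.12. Pgc held the highest value of all probe sets (14.02), and whether signals this high can still show a difference was not tested. In pit cells Muc5ac had 0.06, Tff1 -0.09 and Gkn1 -0.13. In bulk RNA, fewer cells of a type and less RNA per cell cannot be told apart. Tuft cell genes had a median of -0.02 over 9, of which 1 was called lower, beside 0.388% of all genes. It was the signalling regulator Rgs13 (5.44, 6.05, 4.92 and 4.71, difference -1.34). The defining tuft genes Trpm5 (-0.25), Dclk1 (-0.21) and Pou2f3 (0.48) were under 2-fold. Endocrine genes had a median of -0.08 over 9 and none was called.

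Most smooth muscle, fibroblast and enteric neuron genes had small negative differences that did not reach 2-fold. Of 18 smooth muscle genes 15 had a negative difference under metformin, and none was called. The contractile gene Cnn1 was at 11.14, 11.32, 9.67 and 10.68, with a difference of -0.64, and the muscle transcription coactivator Myocd at 7.01, 6.78, 6.00 and 6.13 (-0.65). For 14 of the 18 both KO arrays lay below both WT arrays, beside 24.1% of genes past the filter. The list's median was -0.42 under metformin and -0.89 under vehicle. Of 9 enteric neuron genes past the filter 8 had a negative difference, led by the neuropeptide Vip (-0.96) and the receptor Ret (-0.71), and the median was -0.37, with none called. Tac1, which encodes substance P and lies under the filter, had -1.30.

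Of 14 fibroblast genes 13 had a negative difference, with a median of -0.19. The 1 called lower, beside 0.388% of all genes, was C7, a terminal complement component. It was at 8.73 on WT vehicle, 7.60 on WT metformin, 6.03 on KO vehicle and 6.38 on KO metformin, so the genotypes did not overlap, and its difference was -1.22 (2.33-fold lower). Endothelial genes had a median of -0.07 over 12, from the angiopoietin receptor Tek (-0.50) to Eng (0.42). In the adipocyte list, 2 of 5 genes past the filter were called lower, beside 0.388% of all genes. They were the lipoprotein lipase gene Lpl (-1.23, 2.35-fold lower) and the carbonic anhydrase Car3 (-1.44). Lpl was at 9.82, 10.09, 9.09 and 8.86 and Car3 at 5.64, 5.86, 5.76 and 4.42. Only for Car3 was the KO metformin array alone low. The adipokine Adipoq stayed between 3.65 and 3.87, and the lipid droplet gene Plin1 had -0.27.

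Small RNAs made up 14 of the 43 lower genes, 11 of them small nucleolar or guide RNAs, which direct modification of ribosomal and other RNA. Of 59 small nucleolar RNA genes past the filter 10 were lower and 1 higher, beside 0.388% and 0.532% of all genes, and their median difference was -0.39. Their median level was 6.98 on WT vehicle, 8.25 on WT metformin, 8.46 on KO vehicle and 7.45 on KO metformin. Both the WT metformin and the KO vehicle arrays were thus high. Named after their values were seen, Snord22 was at 7.86, 10.13, 9.02 and 7.70, and Snora15 at 5.79, 7.83, 5.51 and 5.33. For both the WT metformin array was the highest. Protein-coding genes, in contrast, had medians of 6.64 and 6.68 on the WT and KO metformin arrays.

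The medians of respiratory chain and interferon genes were below 0 under metformin and above 0 under vehicle, with 1 gene called. Of 31 complex I genes past the filter 23 had a negative difference and none was called, with a median of -0.19. The accessory subunits Ndufb6 (-0.68) and Ndufb3 (-0.67) were lowest and Ndufc1 (0.41) was highest. Of 36 genes of complexes II to V 28 were negative, with the same median of -0.19, from the cytochrome oxidase subunit Cox7a2 (-0.69) to the succinate dehydrogenase subunit Sdhc (0.26). Under vehicle the medians were 0.55 and 0.53. The median of the small nucleolar RNAs had the same signs (-0.39 and 1.13), and its part in these differences was not tested. Of 23 interferon response genes 18 were negative and 1 was called lower, beside 0.388% of all genes. Their median was -0.13 against 0.83 under vehicle. The called gene was Ifi27l2b, at 8.36, 7.99, 6.59 and 6.63 (-1.36, 2.57-fold lower), and its difference under vehicle was also negative (-1.78). The antiviral genes Oas2 and Bst2 had -0.73 and -0.72, and Ddx60 0.32. Of 13 antigen presentation genes 12 were negative, from the peptide transporter Tap2 (-0.73) to Mr1 (0.13), with H2-Ab1 at -0.57.

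Few genes of metabolic and stress pathways were called. Of 18 cholesterol and fatty acid synthesis genes 15 were positive and none was called (median 0.17). Fatty acid synthase Fasn (0.70) and squalene synthase Fdft1 (0.65) were highest and the malic enzyme Me1 (-0.15) lowest. Under vehicle the list's median was -0.51, against -0.22 over all genes. Fatty acid oxidation genes had a median of 0.07 over 12 and glycolysis and gluconeogenesis genes -0.03 over 11. Integrated stress response genes had 0.14 over 11, with Sesn2 at 0.65 and Ddit3 at 0.42. Of 14 glucocorticoid response genes 2 were called higher, Per1 and Tsc22d3, beside 0.532% of all genes. Zbtb16 (-0.09), Bcl6 (0.08) and Fkbp5 (0.62) were under 2-fold. Immediate early genes had a median of 0.19 over 17 and cell cycle genes 0.07 over 16, with none called.

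Several called genes fell in no list. Higher in KO were Prnd, a prion-like protein gene (8.24, 7.65, 8.95 and 9.66, difference 2.01), and Alad, an enzyme of heme synthesis (7.16, 7.53, 8.48 and 8.76, difference 1.22). For both, the KO arrays lay above the WT arrays. A second probe set of Prnd gave -0.21 at values under the filter. Rab3b, a vesicle GTPase, had 1.22, Tmem178 1.54, Tns4 1.19, Dennd2a 1.13 and the incretin receptor Glp1r 1.13. A second probe set of Dennd2a gave 0.27. Both WT values of Rab3b lie under the filter value, so it passed through the KO arrays. Lower in KO were the endothelial proteoglycan gene Esm1 (-1.23), Echdc2 (-1.24), the PACAP receptor Adcyap1r1 (-1.14), the carboxylesterase Ces2a (-1.10), the palmitoyltransferase Zdhhc2 (-1.09), elastin (Eln, -1.09), the transferrin receptor Tfrc (-1.08), Tmem100 (-1.05), Tgfb3 (-1.04) and the nuclear RNA Neat1 (-1.01). The remaining lower genes named by the rule were Tppp3 (-1.17), Ptcd3 (-1.13), Hecw1 (-1.12), Skp1 (-1.10), S100a6 (-1.09), Spon2 (-1.09), Cyp2j9 (-1.07), Nabp1 (-1.06), Rnf125 (-1.05), Bex2 (-1.03), Mettl7a3 (-1.01) and Vmn1r233 (-1.0). Other probe sets gave 0.06 for Ptcd3, 0.96 for Skp1 and 0.29 for Vmn1r233, so for these genes the direction differed between probe sets.

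The same genotype contrast on the vehicle arrays, which share no array with the metformin comparison, was set beside these values. All 4 arrays were normalized together and the strain difference is common to both contrasts. Under vehicle 256 genes (2.31%) were at least 2-fold higher in KO and 900 (8.12%) lower. Over all 11090 genes both differences were almost unrelated (Pearson's r = 0.024, across genes of 4 arrays). Of the 59 genes higher under metformin, 23 (39.0%) were at least 2-fold higher under vehicle too, 24 had the same sign below 2-fold, 7 were at 0 or below, and 5 were at least 2-fold lower. For 46 of the 59 both KO arrays lay above both WT arrays, beside 12.0% of genes past the filter, although the choice of the 59 fixes the order of the metformin arrays. The 23 were mainly immune genes, among them Chil4, Jchain, Mcpt2, Tpsb2, Retnla and 8 of the immunoglobulin segments, and also held Cnfn, Nccrp1, Per3, Ciart, Alad and Rab3b. Of the 43 lower genes, 10 (23.3%) were at least 2-fold lower under vehicle and 8 at least 2-fold higher. The 10 were Arntl, Ifi27l2b, Echdc2, C7, Adcyap1r1, Ces2a, Zdhhc2, Rnf125, Tmem100 and, named after its values were seen, the predicted gene Gm12888. Gm12888 was at 11.02, 10.74, 6.54 and 7.91, the largest negative difference under metformin (-2.83).

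**Figure D5:**
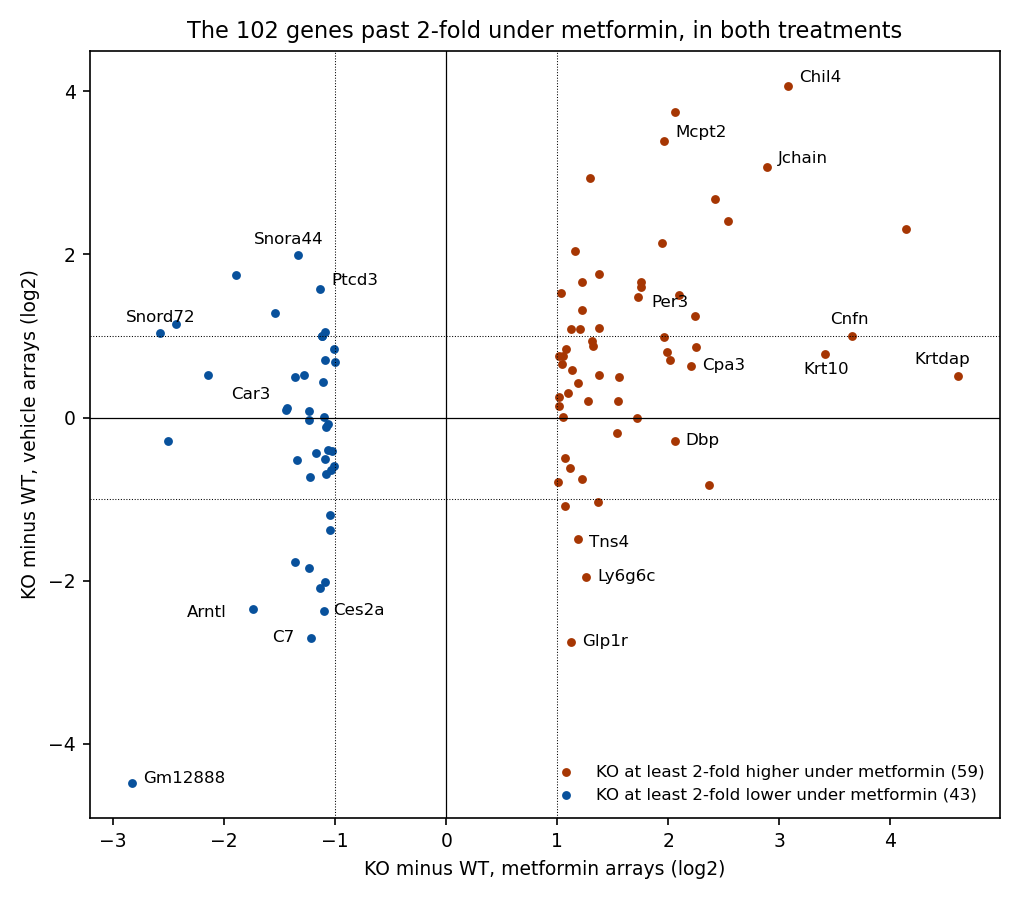
KO minus WT on the metformin arrays (x axis, log2) and on the vehicle arrays (y axis, log2) for the 102 genes called under metformin, with dotted lines at 2-fold. Chil4, Mcpt2 and Jchain are high on both axes and Arntl, C7 and Gm12888 low on both, Krtdap and Krt10 are high under metformin only, and Glp1r, Ly6g6c and Tns4 lie on opposite sides.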

How the data were processed

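Total RNA of the gastric corpus was labelled with the Affymetrix WT Plus kit and hybridised to 1 array per group, per the labels' protocols. Per the submitters' processing notes, the authors used RMA and Partek, and the deposited values are log2 expression. Their versions, settings and annotation build: not given in the sources used here. Having 4 arrays, 1 per group, sets the limit of precision.

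Of 41345 probe sets, 23521 are paired with 1 gene in the platform annotation, 1814 with several and 16010 with none. Symbols were updated through gene identifiers in RefSeq (GRCm38.p6), which held 23328 of the 23521. Where a gene had more than 1 probe set (1082 genes), that of highest mean stood for it, leaving 22180 genes, of which the 11090 with a mean of at least 5.03 were compared. Differences of log2 values have no test. The calculation was tested on simulated data with Python 3.11.15, numpy 2.4.6 and pandas 2.3.3, and cyclic loess used limma 3.58.1 in R 4.3.3.

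Named genes are the 30 highest and 30 lowest called genes (28 qualified as lower), leaving out predicted genes, clone names, small RNAs and immunoglobulin segments, and members of 47 gene lists. Members and lists were chosen with earlier results of these data known. Alternatives were other filters, scalings, probe set rules and a 1.5-fold rule, protein-coding genes alone, and the mean over list members.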

Additional observations from a re-analysis of the deposited data

Results flagged for a closer look

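In 5 named genes the KO minus WT difference was past 2-fold in opposite directions under metformin and under vehicle. With 1 array per group the difference between the treatments was not tested. Ly6g6c had 1.26 under metformin and -1.95 under vehicle, the incretin receptor Glp1r 1.13 and -2.75, and Tns4 1.19 and -1.49. In these 3 genes the KO vehicle array was the lowest of the 4. Ptcd3 had -1.13 and 1.58, and Hecw1 -1.12 and 1.01. The WT vehicle array was the lowest for Ptcd3, whose other probe set had 0.06 under metformin, and the KO metformin array was the lowest for Hecw1. Among all 102 called genes 13 had such opposite differences, and the other 8 were mostly small RNAs.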

How the results depend on the processing

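The counts of higher and lower genes were 55 and 44 after cyclic loess, 61 and 42 when array medians were set equal, and 55 and 38 when probe sets of a gene were averaged. After cyclic loess 55 of the 59 and 42 of the 43 genes stayed called. With no filter the counts were 140 and 76, with a filter at the 75th percentile 18 and 25, and at 1.5-fold 345 and 296. Among protein-coding genes alone 43 were higher and 28 lower. The lower share of the called genes was 42.2%, 35.2% with no filter and 58.1% at the 75th percentile.

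Medians of 40 lists with at least 4 members past the filter were recomputed. The largest shift was 0.06 after cyclic loess, 0.01 after centring, 0.15 with averaged probe sets and 0.19 among protein-coding genes alone. With no filter the mast cell median was 0.33. At the 75th percentile fewer members remain, and the mast cell median was 0.00 (-0.0004, the opposite sign), that of mesothelium 0.0621 (the opposite sign), metaplasia -0.17 and integrated stress response -0.18 (both from above 0), squamous epithelium 0.45, enteric neurons -0.0125, adipocytes -0.76 and clock activators -0.75. As means over members, squamous epithelium had 1.53, plasma cells 0.70 and type 2 immunity 0.61. Of the 58 named genes, 57 stayed past 2-fold after cyclic loess and after centring, Vmn1r233 being the exception. With the mean of probe sets Prnd, Tef, Dennd2a, Ptcd3, Skp1 and Vmn1r233 fell below 2-fold. Of the 58, 56 had a value with averaged probe sets (not Car3 and Hecw1) and 23 at the 75th percentile, and none that had a value changed direction. No paired analysis was possible because each group had 1 array.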

Other observations

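Probe sets without a single gene name were not part of the comparison. Of 4283 unnamed probe sets past the filter value, 182 (4.25%) were at least 2-fold higher in KO under metformin and 101 (2.36%) lower, shares above those of the named genes. Of 798 probe sets with several genes, 6 (0.752%) were higher and 4 (0.501%) lower.

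The carbonic anhydrase family held differences in both directions. Car12, a membrane enzyme that lies under the filter, was at 3.80 on WT vehicle, 3.35 on WT metformin, 4.56 on KO vehicle and 4.92 on KO metformin, and Car9, its relative on gastric surface cells, at 8.94, 8.81, 8.93 and 9.60. Car2, the parietal cell enzyme, had a difference of 0.11 under metformin. Among xenobiotic enzymes none of 15 was called, and Cyp1b1 (-0.93) and Fmo2 (0.80) were farthest apart.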
